A study of Drosophila melanogaster with 42 samples.

Results

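The 41 genes described here make enzymes that digest food or lyse bacteria in the gut of Drosophila melanogaster. They were chosen by name: every Jonah gene (15 genes), the pair CG18179 and CG18180, every gene of the trypsin series (9 genes), the lettered lysozymes (6 genes) and the maltases Mal-A and Mal-B (9 genes), as far as a spot of the array was paired with that gene alone. They lie on 43 of 20000 spots, since epsilonTry and Jon65Aiv have 2 spots each, and are 41 of the 9905 single genes and of the 19077 units tested (genes, plus spots with several genes or no name). The gene table holds 46 genes that fit these names. The other 5, Mal-A6, gammaTry, deltaTry, Jon74E and the pseudogene LysC, had no spot of their own and were not analysed here.

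Jonah proteins and trypsins are serine endopeptidases secreted into the midgut lumen, where they cut dietary protein. Lysozymes break bacterial cell walls, which lets the fly use the bacteria in its food. Of these, LysB, LysD and LysE are known from the midgut, LysP from the adult salivary gland, LysS from the larval gastric caeca and LysX from the time around metamorphosis. Maltases are alpha-glucosidases that split maltose and other sugars at the gut surface. These families lie largely in tandem gene clusters, and their RNA levels are known to follow diet and sugar signalling.

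The study followed 2 genotypes of males over adult life. The mutants were Indy206/CS, heterozygous for the Indy206 allele over a Canton-S chromosome, and the controls were 2216/CS, matched heterozygotes over the same Canton-S background. Indy encodes a citrate transporter of the midgut, fat body and oenocytes. Both genotypes were sampled at day 5, every 10 days up to day 50, and again at days 70 and 80, with 2 or 3 arrays per genotype and age (21 arrays each, 42 in all). Each sample was RNA of 15 pooled males, cut down to head and thorax, so the salivary glands, the proventriculus and the front end of the midgut were in the tissue and most of the midgut was not. Fewer gut cells and less RNA per gut cell cannot be told apart in such samples. Each array set a sample (Cy5) against one pooled reference of control RNA of all ages (Cy3).

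All levels are given as log2 of the sample over the reference, where 0 means equal to the pool and 1 means 2 times its level. The base and the direction are likely, not stated, and every sign below rests on them. Array medians ran from -0.014 to 0.0019, and correlations between arrays from 0.51 to 0.96. Indy itself had ratios of -1.62 to -0.67 (median -1.12) on the Indy206 arrays and of -0.49 to 0.11 (median -0.26) on the control arrays. It was lower in Indy206 at all 8 ages (log2 difference -0.88, SE 0.064, limma adjusted p = 2.0e-10). Control day 20 replicate 2 and control day 30 replicate 1 had the lowest mean correlations with their own groups, 0.76 and 0.77. Photoreceptor genes, which mark the head, had medians above 0 on every array (0.44 to 1.18). Testis genes, which mark an abdominal organ, had medians below 0 on every array (-2.39 to -0.24). Control arrays alone were not centred on the pool, with medians of 0.44 to 1.14 for photoreceptor genes and of -2.18 to -0.24 for testis genes. Which body parts the pool held was not tested, so a ratio below 0 is not read as a low level in the tissue.

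The digestive genes were mostly below the reference. The median over the 41 genes was -0.97 ± 0.44 (SD over 42 arrays) and was below 0 on all 42 arrays. On the control arrays it ran from -1.65 to -0.23. Mean ratios ran from -2.93 for thetaTry to 0.26 for LysP, and these ratios do not rank the genes by abundance. The other genes near the reference were CG18179 at 0.06, Mal-B2 at -0.06, CG18180 at -0.16, Mal-B1 at -0.22 and Jon65Aiii at -0.26. Jonah medians were below 0 on 39 of 42 arrays, and trypsin, lysozyme and maltase medians on all 42. The levels in all 16 groups are drawn in the colour map.

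**Figure D1:**
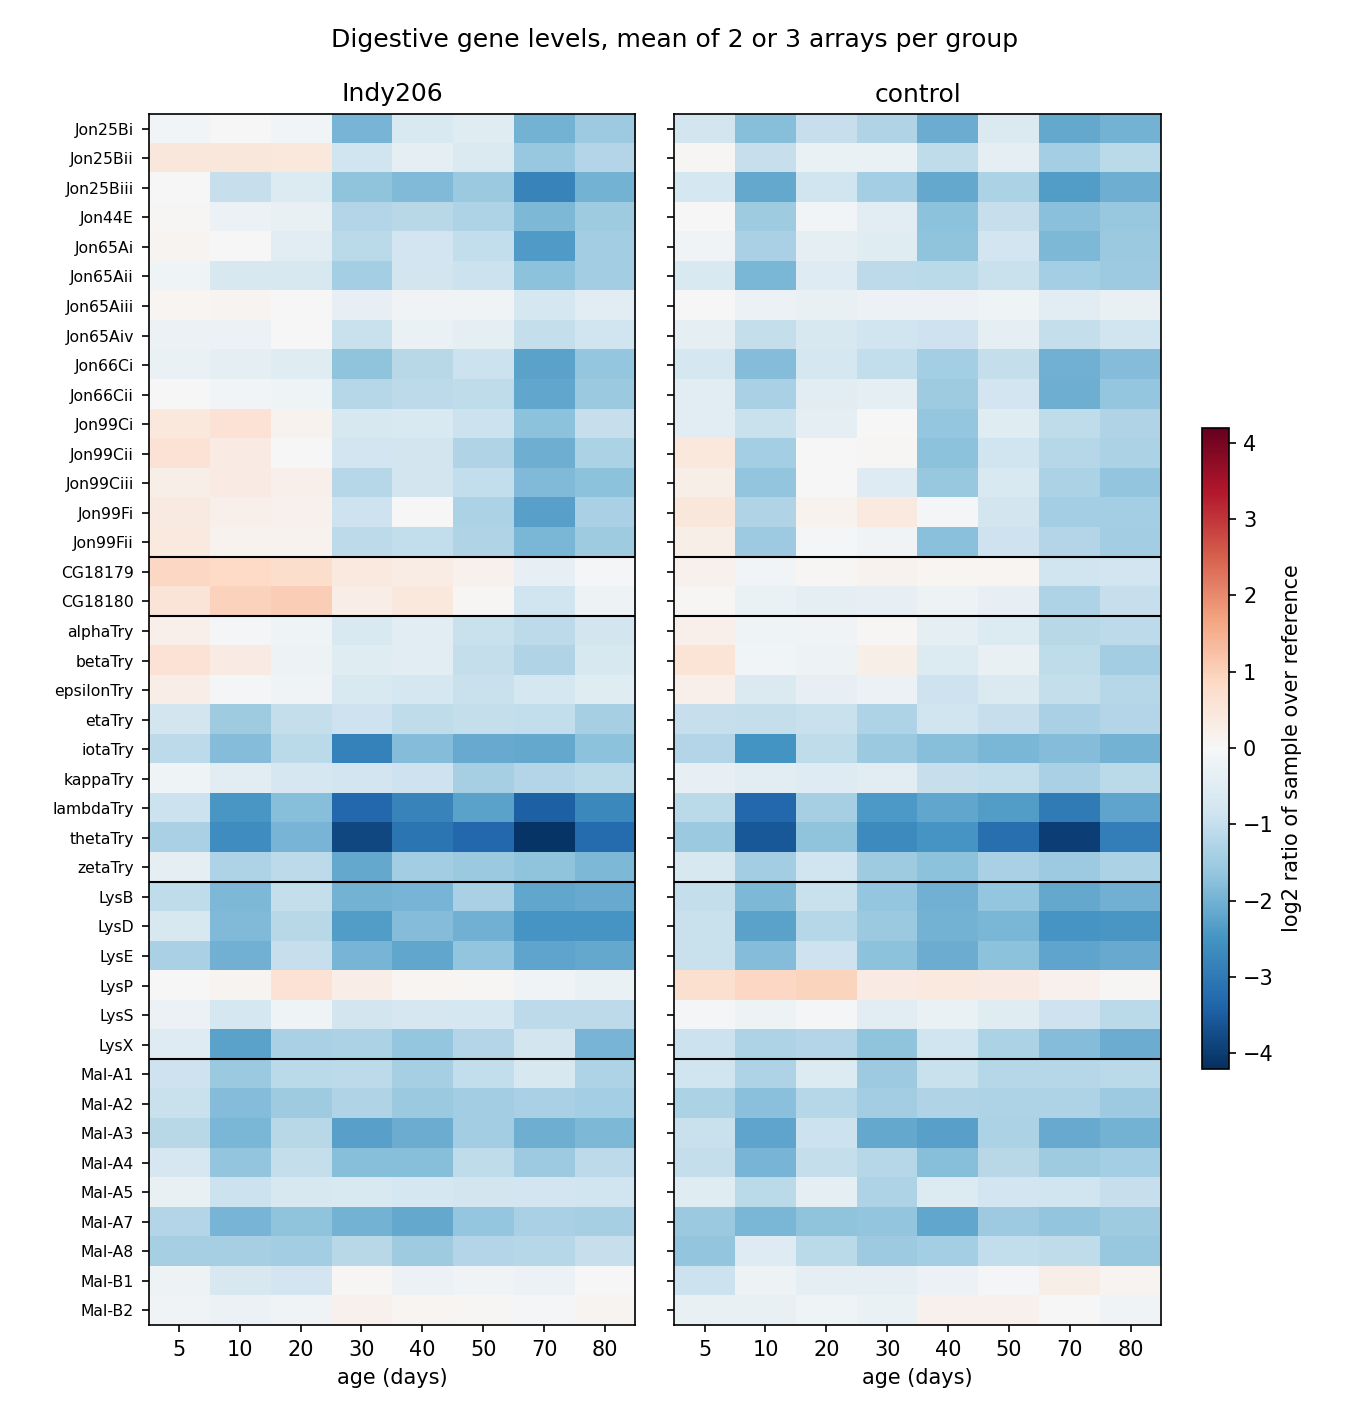
Mean log2 ratio of sample over reference for each of the 41 genes (down the page, families parted by black lines) at each age in days (across), in Indy206 (left panel) and control (right panel), 2 or 3 arrays per group. Red is above the pooled reference and blue below it; CG18179 and CG18180 are redder in Indy206 than in control at all 8 ages, and most proteases and lysozymes are bluer at days 70 and 80 than at day 5.

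The first comparison was between the genotypes, taken as Indy206 minus control averaged over the 8 ages. A pair of neighbouring protease genes, CG18179 and CG18180 (gene IDs 39124 and 39125), were higher in Indy206, by 1.44-fold and 1.68-fold. They were 2 of the 41 genes, against a background of 0.131% of all units called higher. None of the 41 was lower, against 0.220% of all units (limma, adjusted p at or above 0.05). At an unadjusted p under 0.05, 4 of the 41 were higher and 2 lower (566 and 692 among all 19077 units). Both genes are annotated as trypsin-like serine endopeptidases.

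For CG18179 the arrays of the genotypes were apart at days 5, 10, 20 and 80. At day 5 its log2 ratios were 0.44 and 1.27 in Indy206, against 0.16 and 0.20 in control. At day 10 they were 0.63 and 1.08 in Indy206, against -0.37 and 0.15 in control. At day 20 they were 0.67 and 0.84 in Indy206, against -0.21, 0.11 and 0.27 in control. The genotypes did not overlap at any of these ages. At day 30 the ratios were 0.30, 0.42 and 0.55 in Indy206, against -0.09, -0.08 and 0.56 in control. At day 40 they were 0.09, 0.21 and 0.62 in Indy206, against 0.07 and 0.10 in control. At day 50 they were -0.05, 0.09 and 0.54 in Indy206, against -0.13, 0.09 and 0.32 in control. The genotypes overlapped through these middle ages. At day 70 the ratios were -0.91, -0.12 and 0.01 in Indy206, against -0.96, -0.94 and -0.63 in control, where 1 low Indy206 array reached into the control range. At day 80 they were -0.17, -0.14 and 0.08 in Indy206, against -0.89, -0.88 and -0.64 in control, with no overlap. Over all ages the difference was 0.52 (SE 0.086, 95% interval 0.35 to 0.70, limma adjusted p = 0.0012).

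CG18180 ran alongside it with a wider spread. At day 5 its log2 ratios were 0.01 and 1.06 in Indy206, against 0.02 and 0.09 in control, and 1 Indy206 array lay just below both control arrays. At day 10 they were 0.67 and 1.23 in Indy206, against -0.65 and 0.07 in control. At day 20 they were 0.71 and 1.34 in Indy206, against -0.67, -0.30 and -0.29 in control. The genotypes were apart at both ages. At day 30 they were 0.13, 0.26 and 0.42 in Indy206, against -0.85, -0.25 and 0.11 in control. At day 40 the ratios were 0.06, 0.51 and 0.72 in Indy206, against -0.23 and -0.19 in control. Every Indy206 array was above every control array here too. At day 50 they were -0.56, -0.08 and 0.76 in Indy206, against -0.95, -0.25 and 0.14 in control. At day 70 they were -1.90, -0.50 and -0.09 in Indy206, against -1.40, -1.36 and -1.09 in control. The genotypes overlapped at day 50, where 2 Indy206 arrays lay below the highest control array, and at day 70, where the lowest array of all was an Indy206 array. At day 80 they were -0.30, -0.20 and -0.16 in Indy206, against -1.33, -0.91 and -0.70 in control, again apart. Over all ages the difference was 0.75 (SE 0.14, 95% interval 0.47 to 1.04, limma adjusted p = 0.0046).

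**Figure D2:**
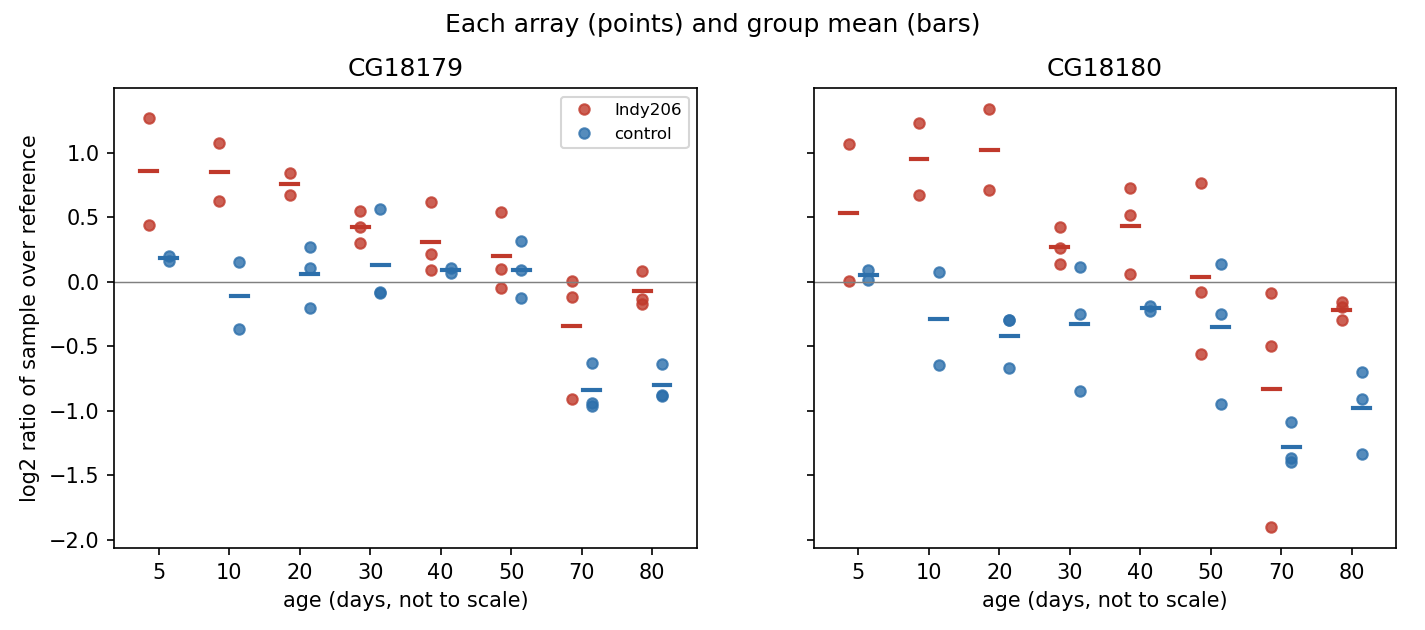
Log2 ratio of sample over reference (vertical) against age in days (horizontal, evenly spaced) for CG18179 (left) and CG18180 (right); points are single arrays, bars are group means, Indy206 red and left of control in blue. At day 80 the Indy206 arrays lie between -0.17 and 0.08 for CG18179 and between -0.30 and -0.16 for CG18180, above all control arrays of that age.

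Leaving out any single array kept the difference between 0.47 and 0.57 for CG18179 and between 0.69 and 0.82 for CG18180, past the threshold in every case. Median ratios of other midgut genes (15 of 19 listed were measured) ran from -1.61 to -0.11 (median -0.72) on Indy206 arrays and from -1.46 to -0.23 (median -0.77) on control arrays, and none of the 15 was called between genotypes. With that median as a covariate the mean of the pair was 0.63, against 0.64 without it. The pair is measured by 1 spot per gene. Probe sequences were not given, so cross-hybridisation between these or other close paralogues was not tested.

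No Jonah gene was called between genotypes, although 14 of the 15 had a difference above 0 (median 0.18, against -0.002 over all units). Jon25Bi had the largest, with ratios of -3.20 to 1.50 (median -1.06) in Indy206 and of -2.83 to -0.04 (median -1.36) in control. Its difference was 0.60 (SE 0.23, limma adjusted p = 0.56), within the spread of the arrays. Jon99Fi was the one Jonah gene below 0, with ratios of -3.77 to 0.64 (median -0.16) in Indy206 and of -2.0 to 1.05 (median -0.35) in control. Its difference was -0.15 (SE 0.24, limma adjusted p = 0.98).

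The trypsins were near 0, with a median of -0.08 and 1 of 9 above 0. With arrays scaled to a common spread, 4 of 9 were above 0. epsilonTry was at 0.14 (SE 0.086), with ratios of -1.28 to 0.51 (median -0.55) in Indy206 and of -1.44 to 0.47 (median -0.64) in control. Its 2 spots differed, at 0.01 and 0.27. lambdaTry was at -0.21 (SE 0.24), with ratios of -4.17 to -0.86 (median -2.43) in Indy206 and of -3.77 to -0.70 (median -2.14) in control. Neither range separates the genotypes.

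Among the lysozymes, LysP (gene ID 38129) had the largest difference, -0.39 (SE 0.11, 95% interval -0.61 to -0.17, limma adjusted p = 0.13), and was lower in Indy206 at all 8 ages. Its ratios were -0.66 to 0.84 (median 0.10) in Indy206 and -0.31 to 1.21 (median 0.54) in control. At day 5 they were -0.22 and 0.17 in Indy206, against 0.67 and 0.70 in control, and at day 10 -0.10 and 0.34 in Indy206, against 0.80 and 0.95 in control. The genotypes did not overlap at those ages and overlapped at the other 6. The share of all units apart at those ages was not counted, so this is not read as a result. LysP passed the threshold only when control day 40 replicate 1 was left out (-0.46, limma adjusted p = 0.035). LysS was at -0.25 (SE 0.097, limma adjusted p = 0.57). LysX was highest of the family at 0.02 (SE 0.34), with ratios of -3.48 to 0.68 (median -1.25) in Indy206 and of -2.88 to 0.26 (median -1.56) in control. LysB, LysD and LysE lay between -0.12 and -0.01. Salivary gland genes had array medians of -0.42 to 0.12 in Indy206 and of -0.22 to 0.17 in control (3 of 5 listed were measured, none called), and their part in the LysP values was not tested.

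The maltases were split, with 4 above 0 and 5 below (median -0.02, and 0.06 with 7 above 0 when arrays were scaled to a common spread). Mal-A5 was at 0.11 (SE 0.12), with ratios of -1.28 to -0.23 (median -0.72) in Indy206 and of -2.44 to -0.31 (median -0.68) in control. Mal-B1 was at -0.06 (SE 0.071), with ratios of -0.91 to 0.70 (median -0.19) in Indy206 and of -1.06 to 0.51 (median -0.20) in control.

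Other digestive genes were listed beside the 41: peptidases, lipases, alpha-mannosidases, amylases and carboxypeptidases, of which 29 of 32 were measured. None of them was called between genotypes, while 8 were higher and 3 lower at an unadjusted p under 0.05, against 566 higher and 692 lower among all 19077 units. The smallest p-values belonged to 4 genes of the lipase family. These were CG6277 at 0.67 (SE 0.16, limma adjusted p = 0.052), CG6283 at 1.06 (SE 0.28, adjusted p = 0.12), CG17191 at 0.56 (SE 0.15, adjusted p = 0.13) and CG6271 at 0.96 (SE 0.27, adjusted p = 0.18).

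The second comparison took each age alone. No member was called at any of the 8 ages in limma. Of all units 0% were called at days 5 and 20. Day 10 had 0.00524% of units higher and 0% lower. Day 30 had 0.0315% higher and 0.0157% lower, and day 40 had 0.0315% higher and 0.0367% lower. Day 50 had 0.0105% higher and 0.00524% lower, day 70 had 0.0367% higher and 0.0996% lower, and day 80 had 0.0262% higher and 0.00524% lower. At an unadjusted p under 0.05 the number of members ran from 0 at day 50 to 14 at day 10 (11 higher and 3 lower). The share of all units under that p at single ages is not given here, so these counts are not read as a result. The Jonah differences had one sign at several ages. All 15 were above 0 at day 10 (median 1.40, up to 2.00 for Jon99Ciii), all 15 were below 0 at day 30 (median -0.64), and all 15 were above 0 again at day 40 (median 0.59). Jonah genes ran together between replicates (median correlation 0.70 over 105 pairs), so these are not 15 separate observations. The signs were not particular to them. Of 15 accessory gland genes, 14 were above 0 at day 10, 13 below 0 at day 30 and 12 above 0 at day 40. Of the 9 maltases, 4 were above 0 at day 10, 3 below 0 at day 30 and 2 above 0 at day 40.

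The arrays behind the Jonah differences were far apart within each group. The median Jonah ratio at day 10 was 0.29 and -0.28 in Indy206, against -1.91 and -0.90 in control. At day 30 it was -2.10, -1.03 and -0.42 in Indy206, against -0.03, -0.28 and -0.99 in control. At day 40 it was -0.18, -1.52 and -0.38 in Indy206, against -0.59 and -2.53 in control. The genotypes were apart at day 10, which is not read as a result, and overlapped at days 30 and 40. Medians of the other digestive genes were apart at day 10 as well, at -0.30 and -0.13 in Indy206 and -1.42 and -0.78 in control. By day 80 the Jonah medians were -1.31, -1.40 and -1.64 in Indy206 and -1.67, -1.32 and -1.42 in control. A test of whether the genotype difference changed with age called none of the 41 genes, against 0.0105% of all units (limma F test). At an unadjusted p under 0.05 there were 3 of the 41, against 814 of all 19077 units.

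**Figure D3:**
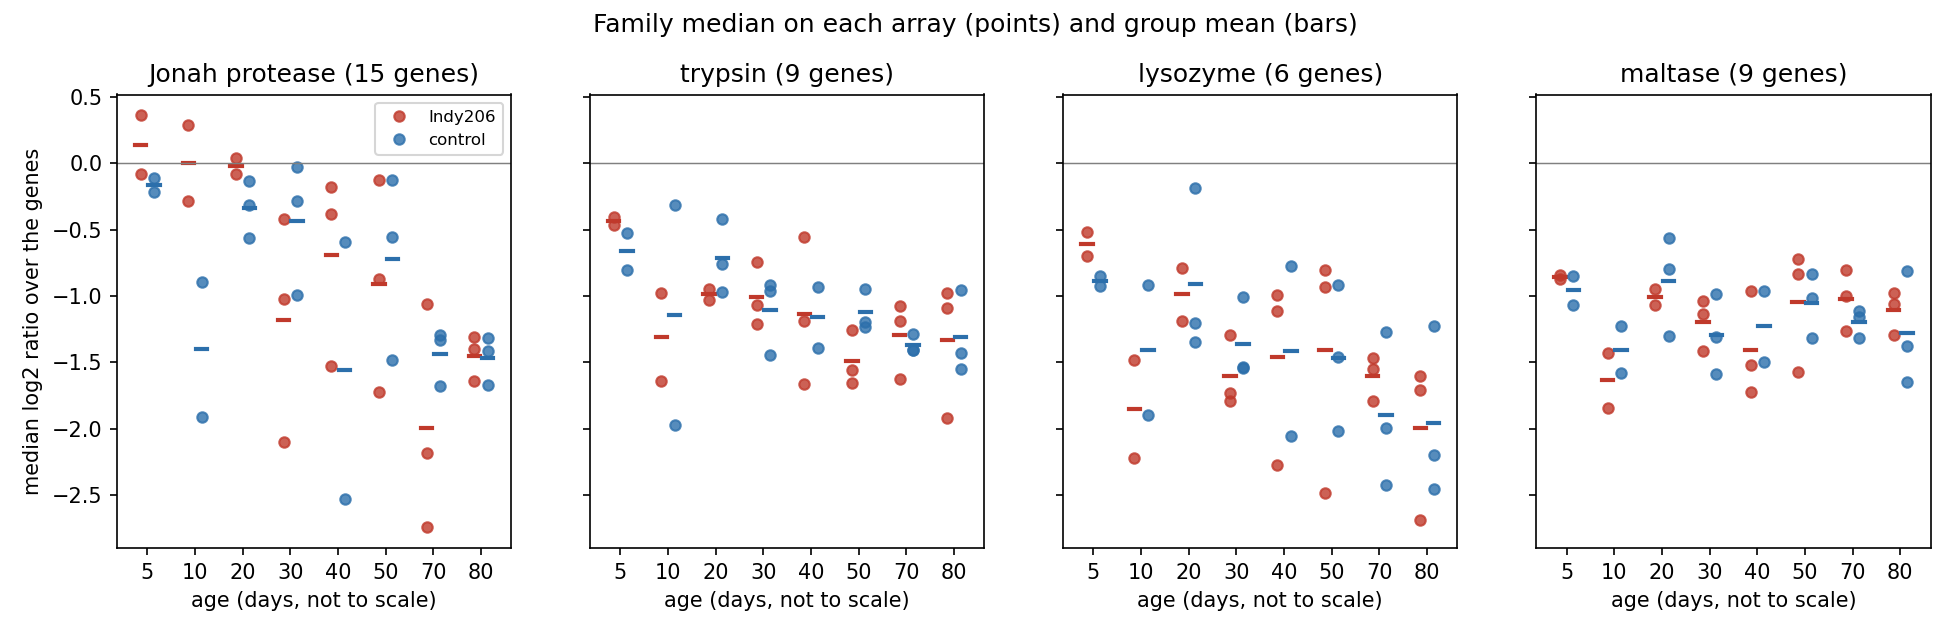
Median log2 ratio over the genes of a family (vertical) against age in days (horizontal, evenly spaced) for Jonah proteases, trypsins, lysozymes and maltases; points are single arrays, bars are group means, Indy206 red and left of control in blue. Jonah arrays of one group spread widely at days 30 and 40 and meet between -1.67 and -1.31 at day 80, while maltase medians stay between -1.84 and -0.56 at all ages.

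The third comparison was the slope with age, the mean of both genotypes, in log2 per 10 days. Most proteases and lysozymes fell, and no maltase did so past the threshold. Of the 41 genes, 28 fell (68.3%, against a background of 15.1% of all units) and 1 rose (background 10.1%). All 41 are single genes, and when single genes alone were tested 24.6% of them fell and 16.6% rose. The fall covered 14 of 15 Jonah genes, both CG18179 and CG18180, 7 of 9 trypsins and 5 of 6 lysozymes. The median slope was -0.12 over the 41 genes and -0.003 over all units. The genes that did not pass were Jon65Aiii at -0.06, etaTry at -0.03, iotaTry at -0.06, LysX at -0.06, and 8 maltases.

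The Jonah genes had a median slope of -0.20, the lowest of the families, and a range of -0.25 (Jon99Fi) to -0.06 (Jon65Aiii). For Jon99Fi the fitted level at day 80 was 0.27 of that at day 5 (slope SE 0.048, limma adjusted p = 0.00019). Its ratios at day 80 were -1.60, -1.38 and -1.15 in Indy206 and -1.68, -1.32 and -1.27 in control. At day 5 they were 0.12 and 0.64 in Indy206 and 0.18 and 0.80 in control. Every day 80 array was therefore below every day 5 array, as for all 15 Jonah genes. Over all families, 28 of the 41 genes had all day 80 arrays below all day 5 arrays, against 9.18% of all units, and Mal-B1 alone had them above, against 6.40%. The 28 were 15 Jonah genes, CG18179 and CG18180, 4 trypsins, 5 lysozymes and 2 maltases, and the other 12 genes overlapped.

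**Figure D4:**
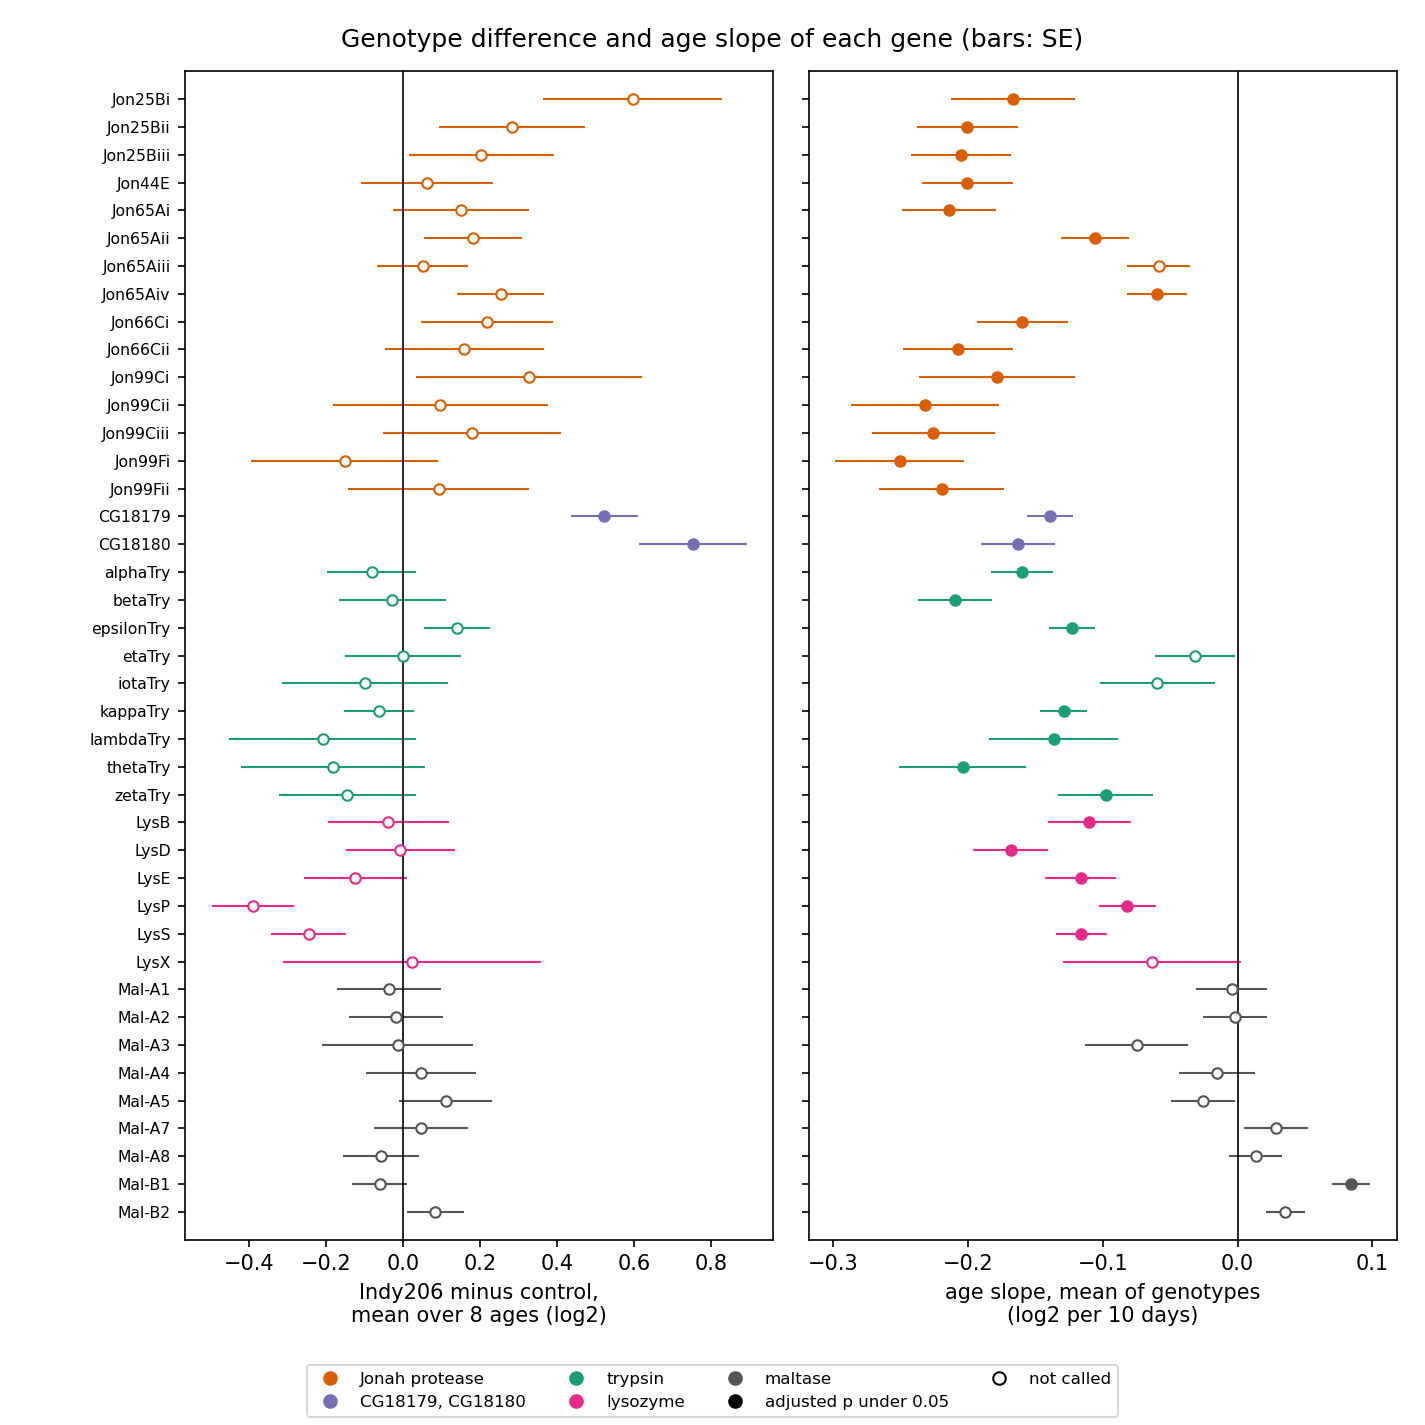
For each of the 41 genes (down the page, coloured by family), Indy206 minus control as the mean over 8 ages in log2 (left) and the age slope in log2 per 10 days (right); bars are SE and filled points passed limma's adjusted p of 0.05. CG18179 at 0.52 and CG18180 at 0.75 are the filled points on the left, while 28 filled points lie below 0 on the right and Mal-B1 lies above it at 0.08.

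The 5 smallest p-values among falling slopes belonged to CG18179 and 4 trypsins. CG18179 fell by 0.14 per 10 days (SE 0.017, limma adjusted p = 2.5e-07), and its values at each age are those given above. betaTry fell by 0.21 (SE 0.027, adjusted p = 8.3e-07 in limma). At day 80 its ratios were -0.85, -0.68 and -0.51 in Indy206 and -1.62, -1.43 and -1.35 in control, against day 5 ratios of 0.37 and 0.87 in Indy206 and of 0.17 and 0.97 in control. alphaTry, its neighbour, fell by 0.16 (SE 0.023, adjusted p = 3.4e-06 in limma). By day 80 it stood at -0.90, -0.89 and -0.56 in Indy206 and -1.17, -1.06 and -1.04 in control, against -0.08 and 0.49 in Indy206 and -0.06 and 0.45 in control at day 5. Both genes were below every day 5 value by day 80.

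kappaTry fell by 0.13 (SE 0.018, limma adjusted p = 1.7e-06). The day 80 ratios were -1.34, -1.09 and -0.98 in Indy206 and -1.17, -1.15 and -1.08 in control, against -0.40 and 0.06 in Indy206 and -0.47 and -0.20 in control at day 5. epsilonTry fell by 0.12 (SE 0.017, limma adjusted p = 1.8e-06), and its 2 spots gave slopes of -0.18 and -0.07. Its ratios at day 80 were -0.67, -0.48 and -0.39 in Indy206 and -1.44, -1.18 and -0.95 in control, against 0.02 and 0.51 in Indy206 and -0.05 and 0.47 in control at day 5. The day 80 arrays of both genes were below all day 5 arrays. lambdaTry, thetaTry and zetaTry also passed, at -0.14, -0.20 and -0.10, but their day 80 and day 5 arrays overlapped. When single arrays were left out in turn, lambdaTry lost its call for 11 of the 42 and zetaTry for 13. The weakest Jonah call, Jon65Aiv at -0.06 (adjusted p = 0.047), lost it for 25.

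LysD (gene ID 38127) had the steepest lysozyme slope, -0.17 (SE 0.028, limma adjusted p = 3.3e-05). The LysD ratios at day 80 were -3.10, -2.18 and -2.17 in Indy206 and -2.89, -2.35 and -2.14 in control, against -0.72 and -0.63 in Indy206 and -0.95 and -0.94 in control at day 5. LysB (-0.11), LysE (-0.12), LysS (-0.12) and LysP (-0.08) fell as well. LysP was the one of these 5 whose day 80 and day 5 arrays overlapped. After quantile normalization between arrays, the lysozymes that fell were LysS (-0.11), LysP (-0.09) and LysD (-0.08, less than the slopes of the other two). LysB was then at -0.02 (limma adjusted p = 0.66) and LysE at -0.03 (limma adjusted p = 0.36), and the lysozyme median was -0.06, against -0.11 without that step. Jon25Bi, Jon65Aiv, lambdaTry and zetaTry lost their calls there too. LysX was at -0.06 (SE 0.066, adjusted p = 0.56) and had the largest spread between replicates of all 41 genes, a residual SD of 1.13.

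Mal-B1 (gene ID 34597) was the one member that rose, by 0.08 per 10 days (SE 0.014, limma adjusted p = 3.7e-05), to a fitted 1.55-fold over the span. Its ratios at day 80 were -0.09, -0.04 and 0.05 in Indy206 and -0.10, 0.11 and 0.34 in control, against -0.33 and -0.11 in Indy206 and -1.06 and -0.74 in control at day 5. The 7 Mal-A genes had slopes of -0.08 to 0.03 and Mal-B2 one of 0.04, none called. After quantile normalization between arrays 6 maltases rose, Mal-A2, Mal-A4, Mal-A7, Mal-A8 and Mal-B2 besides Mal-B1.

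Markers of some other tissues moved with age too, to be read against the 15.1% of all units that fell. That share was 24.6% when single genes alone were tested. Of the muscle genes, which mark the thorax, 9 of 14 measured fell and 2 rose (20 listed). Their array medians were -0.07 to 0.23 at day 80 and 1.01 to 1.46 at day 5, with no overlap. Of the Malpighian tubule genes 2 of 4 measured fell (5 listed), with medians of -2.30 to -1.42 at day 80 and -1.13 to -0.77 at day 5. Of the midgut genes outside these families 8 of 15 fell. Their array medians were -1.46 to -0.52 at day 80 and -0.45 to -0.11 at day 5. Of the testis genes 3 of 6 measured fell (19 listed), with medians of -1.91 to -0.55 at day 80 and -0.87 to -0.40 at day 5. Of the accessory gland genes 8 of 15 measured fell (20 listed), with medians of -3.71 to -2.20 at day 80 and -1.76 to -1.34 at day 5. Fewer fell among photoreceptor genes (1 of 8 measured), fat body genes (2 of 11) and salivary gland genes (0 of 3). The fat body genes fon (0.11, limma adjusted p = 1.7e-07) and Lsd-1 (0.04, limma adjusted p = 0.040) rose. Whether these tissues were stable with age was not tested. Photoreceptor medians were 0.44 to 0.87 at day 80 and 0.89 to 1.18 at day 5. Fat body medians were -0.08 to 0.10 at day 80 and -0.02 to 0.09 at day 5. Salivary gland medians were -0.16 to 0.07 at day 80 and -0.18 to 0.09 at day 5. The Malpighian tubules, testes and accessory glands do not lie in the head or thorax. With the midgut median as a covariate 17 of the 41 genes fell (8 Jonah genes, CG18179 and CG18180, 4 trypsins and 3 lysozymes). With the testis and accessory gland median as a covariate 18 fell (11 Jonah genes, the same pair, 4 trypsins and 1 lysozyme). In these fits 5.90% and 5.47% of all units fell.

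Among the other digestive genes 15 of 29 fell and 1 rose, against 15.1% and 10.1% of all units (24.6% and 16.6% when single genes alone were tested). This list shares 11 genes with the 15 midgut genes above, and 7 of its 15 falling genes are among the 8 counted there. CG12374, a carboxypeptidase gene, fell by 0.42 (SE 0.039, limma adjusted p = 1.4e-09). The alpha-glucosidase gene tobi fell by 0.21 (SE 0.026, limma adjusted p = 2.7e-07), and CG18585, another carboxypeptidase gene, fell by 0.14 (limma adjusted p = 0.0011). The protease gene cathD rose by 0.09 (limma adjusted p = 0.00010). Of 5 measured genes related to the lysozymes but outside the lettered cluster, CG16756 fell by 0.07 (limma adjusted p = 8.7e-05) and the other 4 did not pass. A count of 1 in 5 is near the 15.1% of all units that fell.

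The step from day 5 to day 10 was tested by itself, as day 10 minus day 5 averaged over the genotypes. For 37 of the 41 genes it was below 0 (median -0.60, against -0.01 over all units). Only LysD was called lower, at -1.23 (SE 0.32, limma adjusted p = 0.030), against a background of 2.84% lower, and none was called higher, against 0.833%. A count of 1 in 41 is near that background, so it is not read as a result about these genes. At an unadjusted p under 0.05, 14 were lower and 1 higher, which is not read as a result because the share of all units is not given here. The LysD ratios at day 10 were -2.24 and -1.47 in Indy206 and -2.37 and -2.09 in control, all below the day 5 ratios given above. After quantile normalization its step was -0.29 (limma adjusted p = 0.47), while Mal-A8 (1.66) and Mal-B1 (0.51) were called higher at day 10. With arrays scaled to a common spread it was -1.04 (limma adjusted p = 0.051). Its call was also lost when any 1 of 7 arrays was left out, with steps of -1.30 to -1.04. The control day 5, Indy206 day 5 and control day 10 arrays, and Indy206 day 10 replicate 1, were those 7. In each of these fits the lone array that remained in the group, Indy206 or control, was assumed to vary like the other groups. Over the same step 7 of 15 accessory gland genes, 2 of 6 testis genes, 6 of 14 muscle genes and 2 of 15 other midgut genes were called lower, and with the testis and accessory gland median as a covariate none of the 41 was.

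From day 10 to day 80 alone, 21 genes fell (background 7.93%) and Mal-B1 rose (background 8.20%). The 21 were 11 Jonah genes, CG18179 and CG18180, 4 trypsins and 4 lysozymes. Any change among the 8 ages was called for 26 of the 41 genes, against 22.9% of all units and 3444 of the 9905 single genes (limma F test).

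Taken by genotype, 23 genes fell in Indy206 (background 12.0%) and 12 in control (background 4.01%), and Mal-B1 rose in both (backgrounds 7.44% and 4.67%). For the Jonah genes 14 of 15 fell in Indy206 and 2 of 15 in control (Jon44E and Jon65Ai), with median slopes of -0.26 in Indy206 and -0.13 in control. The slopes themselves were not shown to differ. Indy206 minus control was below 0 for all 15 Jonah genes (median -0.11), but none of the 41 genes was called and none had an unadjusted p under 0.05, and 0% of all units were called either way (limma).

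The 2 smallest p-values for that difference were those of Jon25Biii and Jon65Aii. Jon25Biii had slopes of -0.28 (SE 0.053) in Indy206 and of -0.13 (SE 0.052) in control, a difference of -0.15 (95% interval -0.30 to 0.01, limma adjusted p = 0.83). Its ratios at day 80 were -2.45, -1.79 and -1.75 in Indy206 and -2.40, -2.03 and -1.72 in control, against -0.07 and 0.14 in Indy206 and -1.07 and -0.40 in control at day 5. Jon65Aii had slopes of -0.15 (SE 0.036) in Indy206 and of -0.06 (SE 0.035) in control, a difference of -0.10 (95% interval -0.20 to 0.01, limma adjusted p = 0.83). Its ratios at day 80 were -1.55, -1.43 and -1.41 in Indy206 and -1.95, -1.61 and -1.04 in control, against -0.29 and -0.05 in Indy206 and -0.85 and -0.45 in control at day 5. For both genes the genotypes met at day 80 and did not overlap at day 5, and the share of all units apart at day 5 was not counted.

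Replicates differed more in these genes than in most. The residual SD within groups had a median of 0.48 over the 41 genes and of 0.16 over all units. It was highest for LysX (1.13), Jon99Ci (0.98) and Jon99Cii (0.93), and lowest for Mal-B1 (0.23). By family the median was 0.64 for Jonah genes, 0.50 for trypsins, 0.46 for lysozymes and 0.40 for maltases.

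The deviations of single arrays from their group means ran together in Jonah genes, in CG18179 and CG18180 and in lysozymes more than in the other families. These correlations are descriptions over 42 arrays, and genes on one array share its dissection, RNA and hybridisation. Between Jonah genes the median correlation was 0.70 over 105 pairs (0.15 to 0.97), between CG18179 and CG18180 it was 0.86, and medians were 0.50 between lysozymes, 0.28 between trypsins and 0.19 between maltases. The closest pair, Jon99Cii and Jon99Fii (0.97), lies in separate gene clusters, while lambdaTry and thetaTry (0.94) are neighbours. In the gene table, 40 of the 41 genes stand in 10 clusters (members at most 6 genes apart) and Jon44E stands alone.

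Between families the medians ran from -0.17 (CG18179 and CG18180 with lysozymes) to 0.27. Trypsin and lysozyme genes had a median of 0.27 over 54 pairs, close to that between trypsins, and lysozyme and maltase genes one of 0.27 over 54 pairs, above that between maltases. Trypsins were thus about as close to lysozymes as to each other. Jonah and trypsin genes had a median of 0.14 over 135 pairs, and Jonah and lysozyme genes one of -0.16 over 90 pairs.

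For each array, the median of the genes' deviations from their group means was taken over each family and each marker list. These medians were then correlated over the arrays. In this paragraph the median of a family means that median deviation. The trypsin median went with that of the other midgut genes at 0.75 and with the testis genes at 0.67, and the lysozyme median did so at 0.72 and 0.67. For the Jonah median these values were 0.27 and 0.40, and for the CG18179 and CG18180 median both were -0.22. With the other digestive genes, the Jonah median (0.60) and the trypsin median (0.60) went alike, the lysozyme median stood at 0.43, and the median of the pair stood at -0.02. The largest value for lysozymes was that with Malpighian tubule genes (0.76), where Jonah genes had -0.12. With photoreceptor genes lysozymes were at -0.67, trypsins at -0.61 and Jonah genes at 0.22, and with fat body genes Jonah genes were at 0.50, trypsins at -0.27 and lysozymes at -0.21. The maltase median had its largest value with Malpighian tubule genes (0.55). Whether tissue content sets these array differences was not tested.

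**Figure D5:**
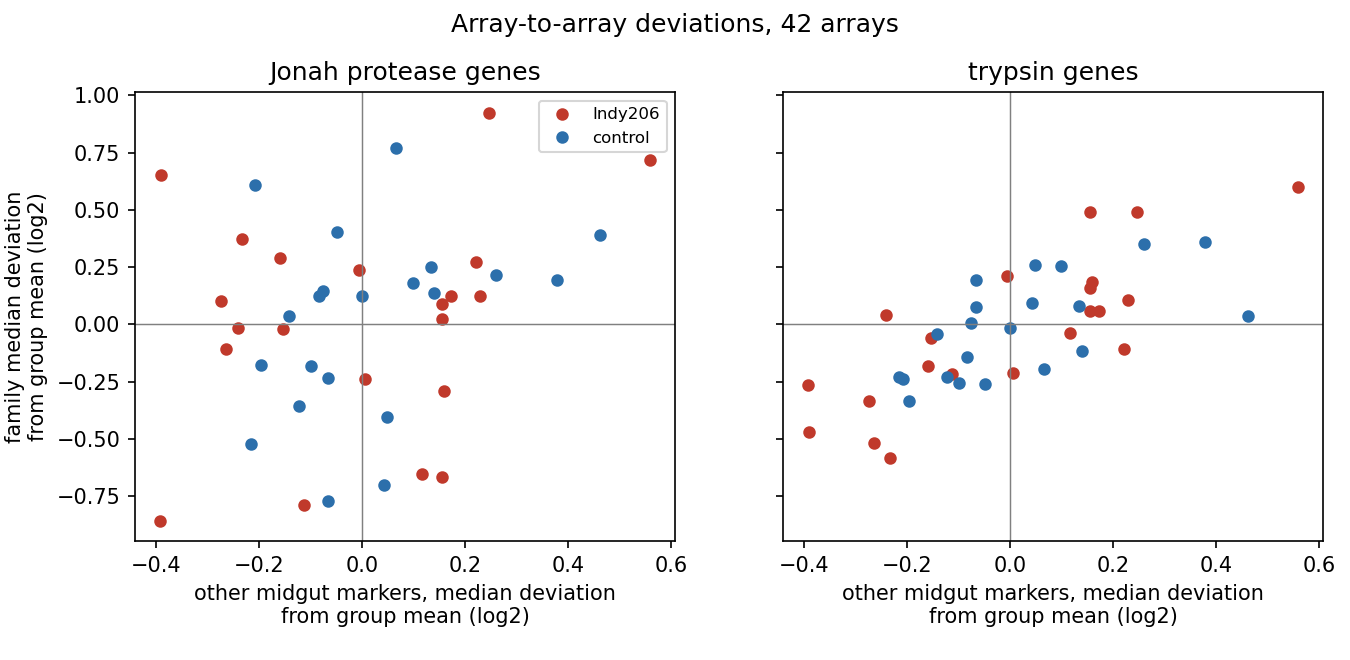
Median over a family of the genes' deviations from their group means (vertical, log2), for Jonah genes (left) and trypsins (right). The horizontal axis is the same median over other midgut genes (log2). Each point is 1 of 42 arrays, with Indy206 arrays red and control arrays blue. The trypsin points follow the midgut genes (correlation 0.75), and the Jonah points scatter more widely around them (0.27).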

How the data were processed

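Values are the log2 ratios the authors deposited, 1 per spot and array, for 42 arrays. Per the submitters' processing notes limma was used, with no version. What was done to the background, how arrays were normalized, which spots were filtered, the log base and the direction: none of this is given in the sources used here. Medians near 0 were taken to show normalized arrays, and no value was normalized again. Signal over background was not analysed here. The number of arrays limits precision.

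Gene names came from the platform annotation (10828 spots with 1 gene, 227 with several, 8945 with none), and all 41 genes matched the gene table of assembly Release 6 plus ISO1 MT, used for names and neighbours alone. Spots of 1 gene were averaged. Means of 16 groups (genotype by age, from the titles) were fitted to all arrays with limma 3.58.1 in R 4.3.3 (lmFit, eBayes, 26 residual degrees of freedom), checked on simulated data. Contrasts were Indy206 minus control over ages and at each age, slopes on day per 10 days, their difference, day 10 minus day 5, and F tests. Benjamini-Hochberg adjustment ran over all 19077 units of a contrast, with a threshold of 0.05. Replicates were taken as separate pools of 15 males. The array titled control day 70 replicate 3 has replicate 1 in its description, and the title was used. Figures used matplotlib 3.10.9. No sequence is printed, since none was given.

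The genes and lists were chosen with earlier results of these data known. Values per array are given for genes called between genotypes, the 5 smallest p-values of called slopes in each direction, the 2 smallest of the slope difference, and the largest genotype difference of each sign in each of the 4 larger families (per genotype range). Jon99Fi by age, LysD and LysP were added after their values were seen. Alternatives were scaling, weights, a robust prior, the replicate number as a block, single spots, single-gene units, marker covariates, day 5 left out, a linear model of age, ages fitted alone and each array left out. Leaving out the 2 arrays of lowest correlation was added after seeing the data.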

Additional observations from a re-analysis of the deposited data

How the results depend on the processing

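The genotype differences of CG18179 (0.50 to 0.53) and CG18180 (0.73 to 0.82) and the age slopes of CG18179, alphaTry, betaTry, epsilonTry, kappaTry and Mal-B1 kept their direction and stayed past the threshold under 11 alternatives each and with each of the 42 arrays left out. Genes called higher in Indy206 were 2 throughout, and none was called lower except in 1 fit (0 to 1), LysP without control day 40 replicate 1.

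Quantile normalization gave 6 rising slopes, 3 rising from day 10 to day 80, 2 higher and 0 lower at day 10 than at day 5, and 1 call at a single age (Mal-B1 at day 5, 1.13). Scaling arrays to a common spread gave 2 rising, 2 rising from day 10, and 2 lower at day 10. Array weights gave 2, 2 and 5 for the same counts. Single spots and single-gene units each gave 2 lower at day 10. The testis and accessory gland covariate gave 18 falling, 2 rising from day 10, 0 lower at day 10 and 12 with any change. The midgut covariate gave 17 falling, 3 rising from day 10 and 11 with any change. Under these covariates the slopes of lambdaTry (0.01 in both) and zetaTry (0.01 in both), and of LysB (0.01) with the testis and accessory gland covariate, were above 0. Leaving out the 2 arrays of lowest correlation gave 2 rising. The causes were not tested.

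With single arrays left out, 24 to 29 slopes fell and 1 to 2 rose, 23 to 29 genes had any change, 0 to 3 were lower and 0 to 1 higher at day 10, and from day 10 on 17 to 24 fell and 1 to 2 rose. The replicate block gave 4 genes lower at day 10, and moved no other count by over 1.5 times. Same-numbered arrays of the genotypes correlated at -0.35 to 0.62 (13 of 19 pairs over 0.1), and 23 of 38 correlated best with their own number, so the numbers were not taken to pair samples. Over all units 1926 slopes rose and 2872 fell, against 2385 and 2457 after quantile normalization, 1222 and 1043 with the testis and accessory gland covariate, 1407 and 1126 with the midgut covariate, and 1511 and 1427 without day 5. Groups of 2 or 3 arrays and the wide spread of the Jonah genes limit what single ages can show.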

Other observations

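Genes known to control digestive enzymes were listed as well (16 of 17 measured), among them activin and sugar sensing genes. None was called between genotypes in limma, while 1 was higher and 3 lower at an unadjusted p under 0.05 (566 and 692 among all 19077 units). The smallest p was that of sug, the sugar-induced transcription factor sugarbabe, at -0.28 for Indy206 minus control (limma adjusted p = 0.064). With age, daw, an activin-like ligand, fell by 0.07 per 10 days (limma adjusted p = 0.0027) and sug fell by 0.04 (limma adjusted p = 0.037). The gene bigmax, partner of the sugar sensor Mondo, rose by 0.04 (limma adjusted p = 0.0088). These counts, 2 of 16 falling and 1 of 16 rising, are no larger a share than the 15.1% and 10.1% of all units. The other 13 were not called, among them babo, put, Smox, Mondo, foxo and GATAe.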
